A study of Mus musculus with 9 samples.

Results

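The expression of 9 genes used to recognise the oligodendrocyte lineage was followed across cultured mouse glia. Each was measured by the only probe the array annotation gives it, so that 9 of the 24613 probes on the array are described. Olig1, Olig2, Sox10, Cspg4, Mbp, Mag and Cnp were treated as the 7 lineage-specific genes. Pdgfra and Cldn11 were set apart as the 2 that fibroblasts or meningeal cells also express. All 9 probes were among the 13972 kept for testing, which were detected above background on at least 3 of the 9 arrays. Total RNA came from primary glia of pups at postnatal days 1 to 3, grown to confluence in medium with horse serum after the meninges had been stripped from the tissue. The 3 groups had 3 biological replicates each. Nontransgenic pups (label B6SJL 2Gur/J) carried no transgene, SOD1-G93A pups (B6SJL-Tg(SOD1*G93A)2Gur/J) carried a SOD1 transgene with the G93A substitution found in familial amyotrophic lateral sclerosis. SOD1-WT pups (B6SJL-Tg(SOD1)2Gur/J) carried the unmutated transgene. The labels give neither the sex of the pups nor the promoter of the transgenes, and name no brain or spinal region. By its title, the study sought genes behind the toxic action of glia with the G93A form.

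Oligodendrocytes wrap axons of the central nervous system in myelin and arise from dividing precursors that carry the platelet-derived growth factor receptor Pdgfra and the proteoglycan Cspg4 (NG2). The transcription factors Olig1, Olig2 and Sox10 set up and maintain the lineage, and Mbp, Mag, Cnp and Cldn11 encode proteins of the mature myelin sheath. Several of these genes are not exclusive: Pdgfra is a standard marker of fibroblasts, Cspg4 of pericytes, Cldn11 also seals cell contacts of the arachnoid, and Sox10, Mbp, Mag and Cnp are also made by Schwann cells.

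Markers of other cell types were measured as lists. All 11 astrocyte genes on the array passed the filter, as did 8 of 9 microglia and macrophage genes and 19 of 20 fibroblast and meninges genes, against 5 of 11 neuronal genes and 2 of 5 Schwann cell genes. Per array, between 13107 and 13618 probes (53.3% to 55.3%) were detected. SOD1-WT replicate 3 stood apart, with a mean signal of 279.6 units against 211 to 236 and a median bead standard error of 6.84% of the signal against 5.08% to 5.23%. Kdm5d, a Y-linked gene, was detected on the 3 SOD1-WT arrays only, at least 5.05-fold higher than in nontransgenic and at least 5.04-fold higher than in SOD1-G93A glia (limma adjusted p = 4.91e-11 and 1.01e-10). The sex of the pups and the genotype cannot be told apart in comparisons with SOD1-WT glia. Precision is limited by the 3 arrays of each group. The labels call the replicates biological but do not say whether they came from separate litters, so the spread may be partly technical.

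In the comparisons with SOD1-WT glia, the 2 genes shared with other cell types had larger changes than any lineage-specific gene. Between SOD1-G93A and nontransgenic glia this was so for Cldn11 (-1.29), while the change of Pdgfra (-0.58) was of the size of those of Sox10, Olig1 and Mbp. Cldn11 fell 13.3-fold and Pdgfra 4.22-fold from nontransgenic to SOD1-WT glia, with SOD1-G93A glia between both for each gene. Among the 7 lineage-specific genes no difference between group means exceeded 0.80 on the log2 scale: Sox10 was higher in mutant glia than in either other group, and Mbp was higher in nontransgenic glia than in either transgenic group. Olig1 passed only as higher in mutant than in nontransgenic glia and Cnp only as higher in SOD1-WT than in nontransgenic glia, while Cspg4, Mag and Olig2 passed the test in no comparison. Levels below are normalised log2 intensities, changes are log2 differences with their standard error, and a call is an adjusted p below 0.05 in a limma fit of all 13972 kept probes, with n = 3 per group. From bulk RNA, fewer cells of a type and less RNA per cell cannot be told apart.

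**Figure D1:**
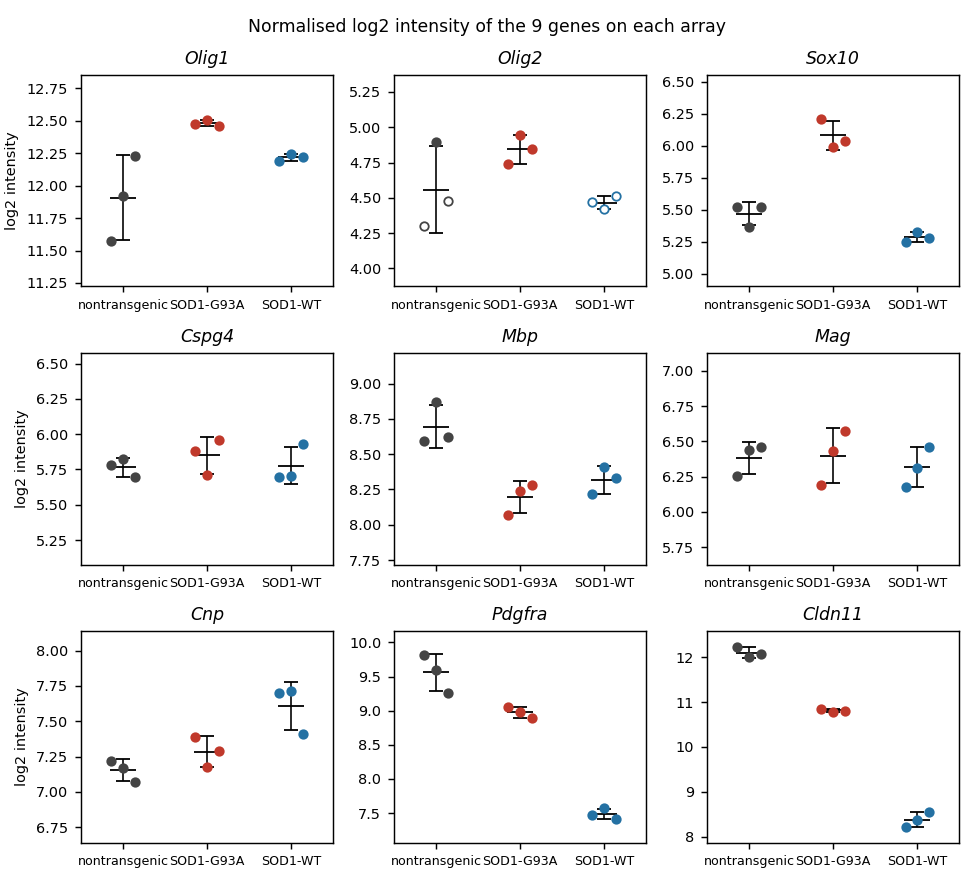
Normalised log2 intensity (y axis) of the 9 genes on each of 3 nontransgenic, 3 SOD1-G93A and 3 SOD1-WT arrays (x axis, points; open where the detection p was 0.01 or more), with the group mean and SD as black bars. Pdgfra and Cldn11 step down from nontransgenic through SOD1-G93A to SOD1-WT glia with no overlap, and their axes span more log2 units than those of the other panels.

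Of the 9 genes, 5 passed the test between SOD1-G93A and nontransgenic glia, 2 higher and 3 lower, where 10.6% of all kept probes passed (5.11% higher and 5.53% lower). Between SOD1-G93A and SOD1-WT glia 3 passed, 3 higher and 0 lower in the mutant, where 15% of kept probes passed (6.91% higher and 8.13% lower). Between SOD1-WT and nontransgenic glia 4 passed, 1 higher and 3 lower, where 25.3% of kept probes passed (13.5% higher and 11.8% lower). The arrays of both groups did not overlap for 5, 6 and 5 of the 9 genes in these comparisons, against 29.4%, 30.3% and 37.7% of kept probes. The 3 comparisons share arrays, so they are not independent of each other.

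Olig1, a basic helix-loop-helix factor that acts in precursor maturation and myelin repair, was detected on all 9 arrays. Its level was 11.57, 11.92 and 12.23 on the nontransgenic arrays, 12.47, 12.51 and 12.46 on the SOD1-G93A arrays, and 12.19, 12.25 and 12.22 on the SOD1-WT arrays. Every mutant array thus lay above every other array, while the nontransgenic arrays spread widely (SD 0.33 against 0.02 and 0.03) and reached into the range of the SOD1-WT group. Olig1 rose 1.49-fold in SOD1-G93A against nontransgenic glia (0.57 ± 0.13, limma adjusted p = 0.0129). The call ended when no probe was filtered out (adjusted p = 0.0573). The difference between mutant and SOD1-WT glia was 0.26 (95% interval -0.03 to 0.55, adjusted p = 0.243), and that between SOD1-WT and nontransgenic glia 0.31 (0.02 to 0.60, adjusted p = 0.110). The last difference depended on which nontransgenic array was left out: it was 0.14 without replicate 1 (adjusted p = 0.445) and 0.47 without replicate 3, where it passed (adjusted p = 0.0119).

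Olig2, the related factor that specifies the lineage, has its gene directly beside Olig1 on mouse chromosome 16, with 0 protein-coding genes between them in the gene table. Its probe lay close to background and was detected on 4 of the 9 arrays: 1 nontransgenic, 3 SOD1-G93A and 0 SOD1-WT. Its level was 4.30, 4.90 and 4.47 in nontransgenic, 4.74, 4.94 and 4.85 in SOD1-G93A and 4.47, 4.42 and 4.51 in SOD1-WT glia. The mutant arrays were the only group detected throughout, but nontransgenic replicate 2 lay among them. Compared with SOD1-WT glia, Olig2 was at least 1.18-fold higher in the mutant without passing the test (limma adjusted p = 0.0797), and its difference from nontransgenic glia was 0.28 (95% interval -0.00 to 0.57, adjusted p = 0.234). Nontransgenic replicate 2 is the only array of its group on which Olig2 was detected. Without it, the comparison with nontransgenic glia sets the mutant against arrays at background and gives no size. The difference from SOD1-WT glia is unchanged by leaving it out, while the spread shared by the groups is estimated anew. Without nontransgenic replicate 2 both adjusted p fell below the threshold (0.0286 against nontransgenic and 0.0278 against SOD1-WT glia). The difference from SOD1-WT glia also passed without nontransgenic replicate 1 (adjusted p = 0.0494) and with only the 2 groups compared in the fit (adjusted p = 0.0299).

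Sox10, the SoxE factor that switches on myelin genes, had the clearest change of the lineage-specific genes. Its level was 5.52, 5.36 and 5.52 in nontransgenic, 6.21, 5.99 and 6.04 in SOD1-G93A and 5.25, 5.33 and 5.28 in SOD1-WT glia. The 3 mutant arrays lay above all 6 others. Sox10 rose 1.53-fold against nontransgenic glia (0.61 ± 0.10, limma adjusted p = 0.000859) and 1.74-fold against SOD1-WT glia (0.80 ± 0.10, adjusted p = 5.19e-05). Both calls held in all 18 alternatives run for each, with changes from 0.38 to 0.69 and from 0.48 to 0.87. SOD1-WT and nontransgenic glia did not differ past the threshold (-0.18, 95% interval -0.39 to 0.03, adjusted p = 0.201), although their arrays did not overlap. Of the Schwann cell list, whose cells also make Sox10, 2 of 5 genes on the array passed the filter, and Ngfr, Foxd3 and Pou3f1 were detected on 0 arrays. The summed normalised intensity of the 2 (Egr2 and Dhh) was 109.8 to 144.8 units in nontransgenic, 108.9 to 133.7 in mutant and 85.5 to 93.1 in SOD1-WT glia, and its part in the change of Sox10 was not tested. Egr2, a transcription factor of myelinating Schwann cells, was higher by 0.64 ± 0.13 in mutant than in SOD1-WT glia (adjusted p = 0.00459), fell by 0.77 in SOD1-WT against nontransgenic glia (adjusted p = 0.000626) and gave -0.14 in mutant against nontransgenic glia (adjusted p = 0.637), while Dhh passed in no comparison.

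Cspg4, the surface proteoglycan of precursors, was level across the groups within the precision of the arrays. Its values were 5.78, 5.82 and 5.69 in nontransgenic, 5.88, 5.71 and 5.96 in SOD1-G93A and 5.70, 5.70 and 5.93 in SOD1-WT glia. All 3 groups overlapped. The 95% intervals of its differences were -0.14 to 0.31 for SOD1-G93A against nontransgenic, -0.15 to 0.30 for SOD1-G93A against SOD1-WT and -0.22 to 0.24 for SOD1-WT against nontransgenic glia (limma adjusted p = 0.733, 0.730 and 0.954). Of the pericyte and mural list, whose cells also carry Cspg4, 7 of 10 genes on the array passed the filter, while the pericyte channel genes Kcnj8 and Abcc9 were detected on 0 arrays. In SOD1-WT against nontransgenic glia 4 of the 7 fell, 1 rose and 2 did not pass (median -0.61). Those that fell were Vtn, an adhesive glycoprotein (-4.13, adjusted p = 2.01e-10), the growth factor receptor gene Pdgfrb (-0.69), the peptidase gene Anpep (-0.66) and Notch3, a Notch receptor of mural cells (-0.61). The actin gene Acta2 rose by 0.62 (adjusted p = 0.000584), and by 0.89 and 1.24 by its other probes. The summed normalised intensity of the 7 was 6957 to 7239 units in nontransgenic, 6871 to 8029 in mutant and 8571 to 10073 in SOD1-WT glia. Bright genes weigh most in such a sum, so it can rise while the median gene falls, and it does not describe the list gene by gene. In SOD1-G93A glia 1 fell against nontransgenic glia, Vtn (-0.73, adjusted p = 0.00662), and 3 were higher and 1 lower than in SOD1-WT glia.

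Mbp, the basic protein that compacts the myelin sheath, was highest in nontransgenic glia. Its level was 8.59, 8.87 and 8.62 there, 8.07, 8.24 and 8.28 in SOD1-G93A and 8.21, 8.41 and 8.33 in SOD1-WT glia. The nontransgenic arrays lay above all others, and both transgenic groups overlapped. Mbp fell by 0.50 ± 0.11 in SOD1-G93A glia (limma adjusted p = 0.00842) and by 0.38 ± 0.11 in SOD1-WT glia (adjusted p = 0.0201). SOD1-G93A against SOD1-WT gave -0.12 (95% interval -0.35 to 0.11, adjusted p = 0.548). Without nontransgenic replicate 2, the highest array, neither call held (-0.41, adjusted p = 0.0520, and -0.29, adjusted p = 0.104), and the second also ended without SOD1-WT replicate 1 (-0.32, adjusted p = 0.0738).

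Mag, a sheath adhesion molecule facing the axon, was detected on all 9 arrays and passed in no comparison. Its level was 6.25, 6.44 and 6.46 in nontransgenic, 6.19, 6.43 and 6.58 in SOD1-G93A and 6.18, 6.31 and 6.46 in SOD1-WT glia. The groups overlapped throughout. The difference of SOD1-G93A from nontransgenic glia was 0.02 (95% interval -0.24 to 0.27) and that from SOD1-WT glia 0.08 (-0.18 to 0.34), with limma adjusted p of 0.967 and 0.741. SOD1-WT against nontransgenic gave -0.07 (-0.32 to 0.19, adjusted p = 0.748).

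Cnp, the phosphodiesterase CNPase of uncompacted myelin, differed in the opposite direction to Mbp between SOD1-WT and nontransgenic glia. Its level was 7.22, 7.17 and 7.07 in nontransgenic, 7.39, 7.18 and 7.29 in SOD1-G93A and 7.70, 7.71 and 7.41 in SOD1-WT glia. The SOD1-WT arrays lay above all others, while the nontransgenic and mutant arrays overlapped. Cnp rose by 0.45 ± 0.11 in SOD1-WT against nontransgenic glia (limma adjusted p = 0.00676), a call that held in all 18 alternatives. SOD1-G93A against SOD1-WT gave -0.32 (95% interval -0.56 to -0.09, adjusted p = 0.0645), and SOD1-G93A against nontransgenic 0.13 (-0.10 to 0.37, adjusted p = 0.555). The SOD1-G93A against SOD1-WT difference passed without SOD1-WT replicate 3 (-0.42, adjusted p = 0.0140), with array weights (adjusted p = 0.0159) and with an offset of 50 (adjusted p = 0.0462).

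Pdgfra, the receptor for platelet-derived growth factor A that drives the division of precursors and also marks fibroblasts, stepped down from group to group. Its level was 9.82, 9.59 and 9.27 in nontransgenic, 9.06, 8.98 and 8.89 in SOD1-G93A and 7.47, 7.57 and 7.41 in SOD1-WT glia. No array of 1 group reached into the range of another. Pdgfra fell by 0.58 ± 0.13 in SOD1-G93A (1.50-fold lower, limma adjusted p = 0.00828) and by 2.08 ± 0.13 in SOD1-WT glia (adjusted p = 2.58e-08), both against nontransgenic glia. Mutant glia had 2.82-fold more than SOD1-WT glia (1.49 ± 0.13, adjusted p = 1.38e-06). Without SOD1-WT replicate 3 the differences that involve SOD1-WT glia were -2.04 and 1.46.

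Cldn11, the claudin that forms the tight junctions of myelin sheaths and of the arachnoid barrier, had the widest range of the 9 genes. Its level was 12.24, 12.01 and 12.07 in nontransgenic, 10.86, 10.78 and 10.81 in SOD1-G93A and 8.21, 8.38 and 8.54 in SOD1-WT glia. In raw bead intensity these were 4017 to 4973, 1631 to 1825 and 302.3 to 458.8 units. The groups were far apart and did not overlap. Cldn11 fell by 1.29 ± 0.11 in SOD1-G93A (2.45-fold lower, limma adjusted p = 2.31e-06) and by 3.73 ± 0.11 in SOD1-WT glia (adjusted p = 1.30e-11), and was 5.42-fold higher in mutant than in SOD1-WT glia (2.44 ± 0.11, adjusted p = 2.01e-09). Without SOD1-WT replicate 3 the differences that involve SOD1-WT glia were -3.81 and 2.52. All 3 calls of Cldn11 and all 3 of Pdgfra held in the 18 alternatives run for each.

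**Figure D2:**
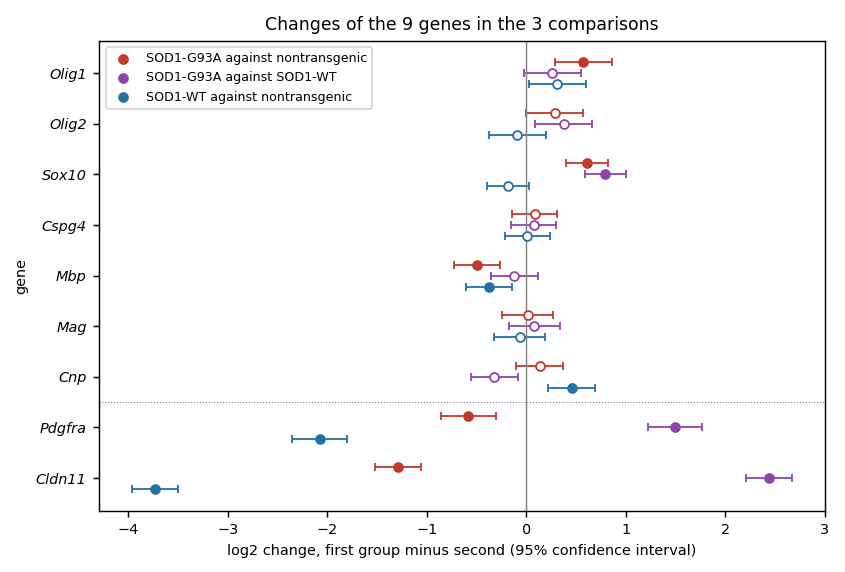
Log2 change (x axis, first group minus second) of the 9 genes (y axis) in the 3 comparisons (colours), with 95% confidence intervals from the limma fit; filled points have an adjusted p below 0.05. The 7 genes above the dotted line stay between -0.50 and 0.80, while Pdgfra and Cldn11 below it run from -3.73 to 2.44.

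The 250 bases upstream of the RefSeq start are shown for Cldn11 and Pdgfra, which moved together, and for Cnp, which was higher in SOD1-WT glia where both were lower. RefSeq promoter entries (GRCm38.p6) matched 6 of the 9 genes. The windows lie on the plus strand at chr3:31149670-31149919, chr5:75152001-75152250 and chr11:100574689-100574938, and capitals mark matches on either strand to an E-box (CANNTG), which basic helix-loop-helix factors such as Olig1 and Olig2 bind, a GC box (GGGCGG) or a CCAAT box (CCAAT).
Cldn11: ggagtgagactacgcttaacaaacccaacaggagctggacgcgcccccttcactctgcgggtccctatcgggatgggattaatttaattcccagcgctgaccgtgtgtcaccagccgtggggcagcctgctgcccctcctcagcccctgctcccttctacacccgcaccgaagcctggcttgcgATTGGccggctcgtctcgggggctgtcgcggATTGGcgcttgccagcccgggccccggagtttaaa
Pdgfra: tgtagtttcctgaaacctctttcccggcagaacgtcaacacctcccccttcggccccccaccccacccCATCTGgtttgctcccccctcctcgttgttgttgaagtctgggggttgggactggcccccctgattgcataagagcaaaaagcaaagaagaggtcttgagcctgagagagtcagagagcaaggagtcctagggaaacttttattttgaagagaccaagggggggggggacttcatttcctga
Cnp: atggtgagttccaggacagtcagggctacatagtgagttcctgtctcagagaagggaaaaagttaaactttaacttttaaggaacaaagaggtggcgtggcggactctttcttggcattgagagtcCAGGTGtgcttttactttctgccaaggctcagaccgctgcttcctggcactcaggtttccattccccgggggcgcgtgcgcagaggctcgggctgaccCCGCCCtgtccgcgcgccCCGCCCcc
The Cldn11 window held 2 CCAAT boxes, the Pdgfra window 1 E-box, and the Cnp window 1 E-box and 2 GC boxes, so Cldn11 and Pdgfra shared none of the motifs searched. The SOX core (ACAAT), the forkhead core (TAAACA) and the TATA box (TATAAA) had 0 matches in these 3 windows, and no matches overlapped. Among 32851 RefSeq promoters of the same length, 66.2% held an E-box, 33.8% a CCAAT box, 32.7% a GC box, 27.7% a SOX core, 12.4% a TATA box and 12% a forkhead core. A match describes letters in the window and not a bound site.

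Other genes of precursors and of the early lineage were followed as a list. Apart from the 9 genes, 11 of its genes were on the array and 8 passed the filter. Against nontransgenic glia 3 of the 8 rose in SOD1-G93A glia, 0 fell and 5 did not pass (median 0.05, against 0.01 over all kept probes). Nkx2-2, a homeodomain factor of oligodendrocyte differentiation, rose by 0.84 ± 0.12 (limma adjusted p = 0.000427) and Sox8, the SoxE relative of Sox10, by 0.66 ± 0.11 (adjusted p = 0.00136). The third was Sox5 (0.42, adjusted p = 0.0259), a SoxD factor that restrains differentiation, whose other 3 probes gave 0.33, 0.26 and 0.28 and did not pass. Against SOD1-WT glia 2 rose, 0 fell and 6 did not pass: Nkx2-2 by 0.87 ± 0.12 (adjusted p = 0.000182) and Bcas1, a marker of newly formed myelinating cells, by 0.87 ± 0.12 (adjusted p = 0.000126). In SOD1-WT against nontransgenic glia 2 rose, 1 fell and 5 did not pass. Here Sox8 rose by 0.45 (adjusted p = 0.00810) and Sox5 by 0.61 (adjusted p = 0.00096), while Bcas1 fell by 0.83 (adjusted p = 0.000112). The other 3 probes of Sox5 gave 0.49, 0.58 and 0.39, of which the last did not pass (adjusted p = 0.0921). The mean level of Nkx2-2 was 5.93 in nontransgenic, 6.76 in mutant and 5.90 in SOD1-WT glia, so it was higher in the mutant group than in both others, as was Sox10.

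The other genes of the myelin list changed less than Cldn11 in each comparison. Apart from the 9 genes, 24 of its genes were on the array, 13 passed the filter and 8 were detected on 0 arrays, among them Aspa, an enzyme of acetylaspartate breakdown, the cytoskeletal gene Ermn and the junction gene Gjc3. In SOD1-G93A against nontransgenic glia 0 of the 13 rose, 2 fell and 11 did not pass (median -0.04). The 2 were Opalin, a sheath glycoprotein (-0.56 ± 0.10, limma adjusted p = 0.00260, detected on 1 of 3 mutant arrays), and Pllp, a myelin proteolipid (-0.44 ± 0.11, adjusted p = 0.0180). In SOD1-WT against nontransgenic glia 3 rose, 2 fell and 8 did not pass (median 0.05), where 13.5% of kept probes rose and 11.8% fell. The 2 were again Opalin (-0.47, adjusted p = 0.00412) and Pllp (-0.72, adjusted p = 0.000209, detected on 1 of 3 SOD1-WT arrays). The 3 that rose were Tspan2, a tetraspanin (0.42, adjusted p = 0.00959), the deacetylase gene Sirt2 (0.37, adjusted p = 0.0124) and the carbonic anhydrase gene Car2 (0.37, adjusted p = 0.0499), the last 2 named after their values were seen. Against SOD1-WT glia 0 rose in mutant glia and 1 fell, Tspan2 (-0.58 ± 0.11, adjusted p = 0.00176), and 12 did not pass (median -0.09). Without SOD1-WT replicate 3 the first comparison had 1 gene higher in place of 0 and 3 lower in place of 2. Mal, counted as not passing by its brighter probe, gave -0.35 in SOD1-G93A and -0.19 in SOD1-WT against nontransgenic glia (adjusted p = 0.139 and 0.356). Its other kept probe fell in both (-0.63 and -0.47, adjusted p = 0.0131 and 0.0324). Mal was named after its values were seen.

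Fibroblast and meningeal transcripts moved in the direction of Pdgfra and Cldn11. Of the 19 measured genes of this list, 19 fell in SOD1-WT against nontransgenic glia (median -1.86, or -1.85 with 3 dim genes at their bound), where 11.8% of all kept probes fell. The list was chosen with earlier results of these data known, so its counts describe it and are no test against that share. In SOD1-G93A against SOD1-WT glia 18 rose, 0 fell and 1 did not pass (median 1.55). In SOD1-G93A against nontransgenic glia 11 fell, 2 rose and 6 did not pass (median -0.40). Without SOD1-WT replicate 3 these counts were 18 lower, 16 higher, and 11 lower with 2 higher. Ptgds, the leptomeningeal prostaglandin D synthase, fell by 6.30 ± 0.09 in SOD1-WT against nontransgenic glia (limma adjusted p = 1.15e-14) but gave -0.26 in SOD1-G93A glia (adjusted p = 0.0846). Mgp, a calcification inhibitor of matrix, fell by 6.09 ± 0.14 (adjusted p = 1.94e-12) and by 1.65 ± 0.14 (adjusted p = 3.00e-06) in the same comparisons. Foxc2, a mesenchymal forkhead factor, was at least 21.1-fold lower in SOD1-WT glia (adjusted p = 3.48e-12) and fell by 1.63 in SOD1-G93A glia (adjusted p = 6.94e-07). The 2 genes higher in mutant than in nontransgenic glia were Lum and Col1a2, a collagen-binding proteoglycan and a collagen chain, which were named after their values were seen (0.79 and 0.86, adjusted p = 0.000187 and 0.000323).

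The summed normalised intensity of these 19 genes was 36196 to 38174 units on the nontransgenic, 27980 to 29240 on the SOD1-G93A and 6749 to 8431 on the SOD1-WT arrays, in the same order as Pdgfra and Cldn11. Foxc1 was detected on 0 arrays, and Slc22a6 on the 3 nontransgenic arrays only. The part of the meningeal shift in the changes of Pdgfra and Cldn11 was not tested. Since the lists were chosen with earlier results of these data known, the shares that follow are descriptions. For 11 of the 19 genes every nontransgenic array lay above every SOD1-G93A array, and every SOD1-G93A array above every SOD1-WT array, as for Pdgfra and Cldn11. The same strict order held for 3.52% of all kept probes (1.53% with all 3 comparisons also past the threshold, as for Pdgfra and Cldn11), for 0 of the 8 other precursor and lineage genes, for 1 of the 13 other myelin genes (Pllp) and for 0 of the 11 astrocyte genes. The summed intensity of the astrocyte list was 23139 to 24988, 26897 to 28632 and 29928 to 32237 units in the 3 groups. Gene by gene, 2 of the 11 rose, 2 fell and 7 did not pass in SOD1-G93A against nontransgenic glia (median 0.08). In SOD1-G93A against SOD1-WT glia 1 was higher, 0 lower and 10 did not pass (median -0.16), and in SOD1-WT against nontransgenic glia 6 rose, 1 fell and 4 did not pass (median 0.30).

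**Figure D3:**
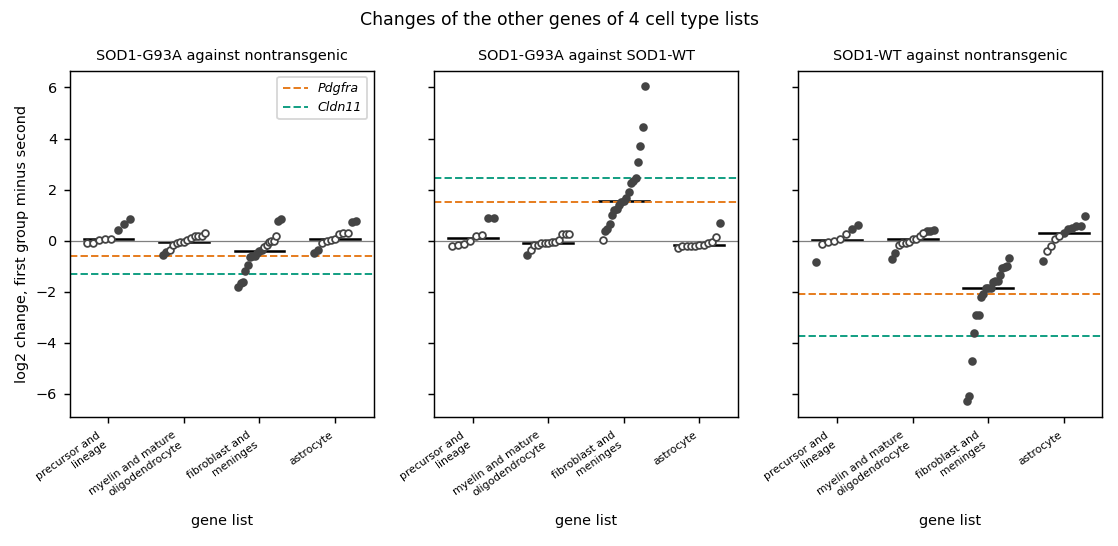
Log2 change (y axis) of each kept gene of 4 lists (x axis), without the 9 genes, in the 3 comparisons (panels); filled points have an adjusted p below 0.05, black bars are list medians, and dashed lines give Pdgfra and Cldn11. Both lines run through the range of the fibroblast and meninges list and, in the comparisons with SOD1-WT glia, outside that of both oligodendrocyte lists.

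Ligands and relatives of the PDGF receptor did not follow Pdgfra as a group. All 6 others passed the filter. Pdgfb, the B-chain ligand, rose in both transgenic groups against nontransgenic glia (0.91 ± 0.10, limma adjusted p = 2.50e-05, in SOD1-G93A and 0.89 ± 0.10, adjusted p = 8.45e-06, in SOD1-WT). Pdgfrb, the receptor of pericytes and fibroblasts, fell by 0.69 ± 0.10 in SOD1-WT glia (adjusted p = 0.000114), was higher by 0.60 in mutant than in SOD1-WT glia (adjusted p = 0.000627) and gave -0.09 in SOD1-G93A against nontransgenic glia (adjusted p = 0.699). The remaining genes, Pdgfa, Pdgfc, Pdgfd and Pdgfrl, passed in none of the 3 comparisons, and were named after their values were seen.

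The tight junction genes measured beside Cldn11 moved in both directions. Of the 6 other genes kept, 2 rose, 2 fell and 2 did not pass in SOD1-WT against nontransgenic glia. Cdh1, the epithelial cadherin also found in the arachnoid, was at least 3.55-fold lower in SOD1-WT glia (limma adjusted p = 3.47e-09) and fell by 1.89 ± 0.11 in SOD1-G93A glia, where it was detected on 1 of 3 arrays (adjusted p = 6.45e-08). Cldn10, another claudin, rose by 1.39 ± 0.11 in SOD1-WT against nontransgenic glia (adjusted p = 2.75e-07) and by 1.37 and 1.06 by its other kept probes. Ocln, the occludin of tight junctions, rose by 0.53 ± 0.10 (adjusted p = 0.000917). The other gene that fell in SOD1-WT against nontransgenic glia was Tjp1 (-0.74, adjusted p = 0.00264). Tjp1 gave -0.26 in SOD1-G93A against nontransgenic glia (adjusted p = 0.359) and was named after its values were seen. Cldn5, the claudin of brain endothelium, was detected on 0 arrays.

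The genes with profiles most like those of Pdgfra and Cldn11 were found by the root mean square difference between log2 profiles over the 9 arrays, each centred on its own mean. Pdgfra and Cldn11 were the only ones of the 9 genes whose group means spanned at least 1 on the log2 scale, as the rule required. Closest to Pdgfra were Ror2, a receptor tyrosine kinase for Wnt5a (difference 0.14), and Bmp7 and Bmp4, bone morphogenetic proteins (0.15 each). Their mean levels, in the order nontransgenic, mutant and SOD1-WT, were 6.77, 6.29 and 4.86 for Ror2, 8.06, 7.58 and 5.92 for Bmp7, and 9.46, 8.88 and 7.19 for Bmp4. Closest to Cldn11 were Foxd1, a forkhead factor that is also in the fibroblast and meninges list (0.13), Mpzl2, an adhesion protein (0.21), and Itih2, a hyaluronan-binding inhibitor chain (0.23). Foxd1 stepped from 9.17 through 7.98 to 5.53, Mpzl2 from 9.86 through 8.25 to 6.19, and Itih2 from 11.14 through 10.26 to 7.36. These are descriptions over 9 arrays that share the same group differences.

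**Figure D4:**
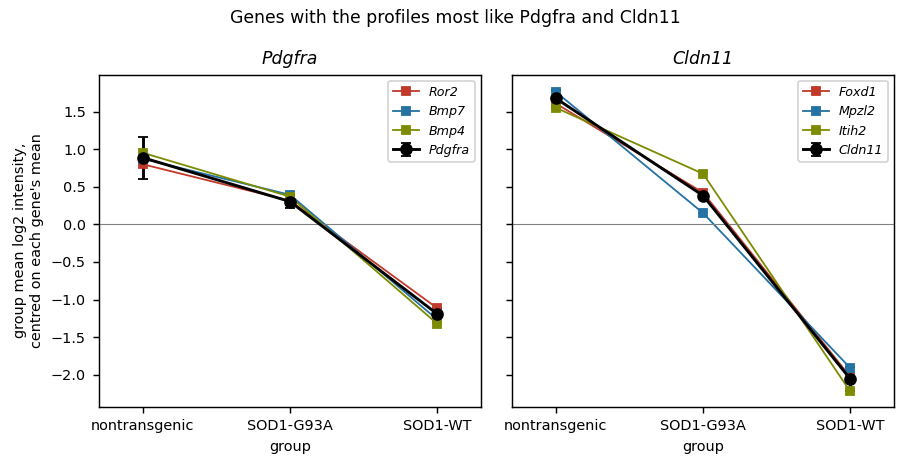
Group mean log2 intensity (y axis), centred on each gene's mean, of Pdgfra and Cldn11 (black, with SD over 3 arrays) and of the 3 genes most like each (colours) in the 3 groups (x axis). Foxd1 and Cldn11 nearly coincide, with a root mean square difference of 0.13 over the 9 arrays.

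The beads behind these values numbered 16 to 48 per probe and array for the 9 genes. Their standard error within an array was between 2.14% and 11.3% of the signal, with the highest value for Cspg4 on SOD1-WT replicate 3. For Cldn11 the bead standard error stayed at or below 6.99%.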

How the data were processed

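Per the file headers, the deposited raw values are, for each of 24613 probes a mean bead intensity, a bead count, the standard error of the bead signal and a detection p-value on 9 arrays. Per the series text, 3 biological replicates of each group were amplified by 1 round of T7 transcription. Per the submitters' processing notes, BeadStudio was used, whose version is not given in the sources used here. Another deposited table holds the authors' normalised intensity, from the values a straight line of the raw one with a background taken off.

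Raw intensities were normalised with neqc (limma 3.58.1, R 4.3.3; negative controls inferred from detection p-values, offset 16, quantiles, log2). The filter kept probes detected (p below 0.01) on 3 or more arrays. All arrays entered 1 limma fit with 3 groups (6 residual and 7.52 prior degrees of freedom), and two-sided p-values were adjusted by Benjamini and Hochberg's method across the kept probes, separately by comparison. Calls were made below 0.05. The fit was also run on simulated data with independent normal noise and planted shifts. Such data hold no batch, sex or shared array effect, so they do not test for these.

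Of the probes, 20984 had 1 symbol, 1 several and 3628 none in the platform annotation. Symbols were updated by gene identifier. In lists, each gene was represented by the brightest of its kept probes. Where a probe was below background on every array of a group, its fold is a lower bound, with each dim array set to the higher of the probe's value and its lowest detected signal. Named beside the 9 genes were up to 4 genes of a list and comparison with the smallest p, and the 3 genes most like each of the 9 whose group means spanned at least 1. Genes named as undetected were chosen after their values were seen. The 9 genes and the lists were chosen with earlier results of these data known.

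Alternatives covered the authors' table (11.1 added before log2), no background correction, an offset of 50, 2 other filters, other priors, array weights, 2 groups only, a replicate block and each array left out.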

Additional observations from a re-analysis of the deposited data

How the results depend on the processing

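The 9 genes gave 483 differences under the alternatives, of which 471 kept their side of the threshold, 4 lost a call, 8 gained one and 0 called differences changed sign. The calls of Cldn11, Pdgfra and Sox10, and that of Cnp in SOD1-WT against nontransgenic glia, held throughout. With each array left out in turn, the number of the 9 genes past the threshold was 5 to 5 for SOD1-G93A against nontransgenic, 3 to 4 for SOD1-G93A against SOD1-WT and 3 to 5 for SOD1-WT against nontransgenic glia. Without nontransgenic replicate 2 the count of 5 held other genes, since Mbp left and Olig2 entered, the latter against 2 arrays on which its probe was not detected. The causes were not tested. Without a filter more probes are adjusted for and the prior spread is also estimated from more probes, and their parts were not separated. A fit with the replicate number as a block called 5, 3 and 4 of the 9 genes, as did the fit without it. Deviations of same-numbered arrays correlated at -0.02 to 0.15, and those of differently numbered arrays at -0.20 to 0.19. These values do not settle whether the arrays were paired, and the numbers were not taken to pair them. At a detection p below 0.05, Olig2 was detected on 6 arrays in place of 4. The list counts without SOD1-WT replicate 3 were added after the data were seen. A slide block was not run, since the files name no slides. Signal over background limits what can be said of Olig2, and the size of the changes of Sox10 moved with the offset.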
